A study of Mus musculus with 12 samples.

Results

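The nuclear-encoded subunits of the respiratory chain and the ATP synthase were examined in hind limb muscle and heart, with Tk2+/+ mice set against Tk2-/- mice. They were taken by gene symbol (Nduf followed by a, b, c, s or v and a number, Ndufab1, Sdha to Sdhd, Cyc1, and symbols that begin with Uqcr, Cox4 to Cox8 or Atp5), with the brightest probe set of each gene. No difference between groups entered the rule. This gave 82 of the 18820 genes on the arrays, of which 36 belong by name to complex I, 4 to complex II, 8 to complex III, 17 to complex IV and 17 to complex V. No probe set with a name was given for the subunits that mtDNA encodes, and Cox7c, Ndufa13 and Uqcrc2 share their probe sets with another gene, so these are not analysed here. Ndufa4 is counted with complex I by its name, although it is now regarded as a subunit of complex IV, and Cox7a2l, counted with complex IV, is a factor for supercomplexes.

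Complexes I and II pass electrons from NADH and succinate to coenzyme Q, complex III passes them on to cytochrome c, complex IV reduces oxygen, and complex V makes ATP from the proton gradient that results. All of these complexes apart from complex II are built from subunits of both genomes, a few encoded in mtDNA and the others in the nucleus. Heart and skeletal muscle are rich in them and use their own isoforms of several complex IV subunits, which many other tissues express little.

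Tk2 encodes thymidine kinase 2, the mitochondrial kinase that phosphorylates thymidine and deoxycytidine for mtDNA synthesis. Hind limb skeletal muscle and heart were taken from C57BL/6 mice 11 days old, and each of the 4 groups (each tissue from Tk2+/+ and from Tk2-/- mice) had 3 arrays from 3 different mice. The knockout is constitutive, so that every cell type of a Tk2-/- tissue lacked the gene, and both genotypes came from matings of heterozygous parents. No treatment is described for any group. Sex, litter and whether both tissues of a number came from the same mouse are not stated.

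Values are called signal here, the linear intensity of a probe set, and log2 values were taken after 16 was added to the signal, which understates changes of dim genes. Signals of Tk2 itself were 62.9, 68.5 and 63.1 in Tk2+/+ muscle and 64.7, 44.1 and 48.7 in Tk2-/- muscle, so that the genotypes overlapped there. In heart they were 70.2, 73.6 and 81.8 in Tk2+/+ and 30.1, 46.2 and 31.7 in Tk2-/- mice, without overlap. Whether the probes lie within the disrupted stretch of Tk2 is unknown here, so this is no check of the labels. Of 12 markers of fast skeletal fibres, 11 were higher in Tk2+/+ muscle than in Tk2+/+ heart by limma (adjusted p under 0.05), and 9 of 10 cardiomyocyte markers were lower.

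The whole distribution of signals was lower in Tk2-/- heart, which bears on every value below. The mean signal of an array was 147 to 168 in Tk2-/- heart against 227 to 243 in Tk2+/+ heart, and the median log2 change was -0.28 over all genes and -0.68 over the 4051 genes with a mean signal above 256. Of the 82 subunits, 77 were above 256. In skeletal muscle the corresponding medians were -0.02 and 0.09. Results are therefore given on the deposited values and again after quantile normalization, which gives all arrays of a tissue 1 distribution and takes out any shift that all genes share. Markers of other cell types were lower in Tk2-/- heart as well: all 6 fibroblast markers, with summed signals of 4833 to 5258 against 8189 to 10019, all 7 macrophage and leucocyte markers (551 to 656 against 1499.7 to 1879) and all 6 endothelial markers (3417 to 4407 against 6857 to 8056). After quantile normalization 4 of 6, 6 of 7 and 4 of 6 of these were lower and 1 fibroblast marker was higher. On the deposited values 84.8% of genes above a signal of 256 were lower in Tk2-/- heart. In bulk tissue, fewer cells of a type and less RNA per cell cannot be told apart.

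Most subunits were lower in Tk2+/+ skeletal muscle than in Tk2+/+ heart. By limma on the deposited values 58 of 82 were lower and 3 higher, with a median log2 fold change of -0.47, where 18.4% of all genes tested were lower and 30.6% higher, with a median of 0.12. Quantile normalization over the 12 arrays left 54 lower and 0 higher, with a median of -0.31 (all genes: 21.4% lower, 19.4% higher, median -0.01), and 2 had an unadjusted p under 0.05 and a higher signal. Among the genes above a signal of 256, 36.8% were lower on the deposited values and 31.8% after quantile normalization. All 5 complexes held such subunits. In all, 23 of 36 subunits of complex I, 3 of 4 of complex II, 6 of 8 of complex III, 14 of 17 of complex IV and 12 of 17 of complex V were lower on the deposited values, with medians of -0.45, -0.51, -0.42, -0.55 and -0.42. After quantile normalization the counts were 23, 3, 5, 12 and 11. Of the 65 genes taken by symbol as proteins of the cytosolic ribosome, 1 was lower and 4 were higher (1 and 26 after quantile normalization). Of the 74 of the mitochondrial ribosome, 14 were lower and 5 higher (13 and 15). Signals of the tissues did not overlap for 63 of the 82 subunits (76.8%), against 55.8% of all genes.

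The largest difference among the subunits was that of Ndufa5, an accessory subunit of the matrix arm of complex I. Its signals were 486, 566 and 423 in Tk2+/+ muscle against 1116, 965 and 1079 in Tk2+/+ heart, a log2 fold change of -1.08 (SE 0.14, adjusted p = 2.58e-05) on the deposited values and -0.93 after quantile normalization. Ndufa1, a small membrane subunit of complex I, had signals of 324, 427 and 308 against 743, 604 and 689.8 and a log2 fold change of -0.92 (SE 0.14, adjusted p = 0.000123). Neither gene overlapped between the tissues. Cox6a1, the widely expressed isoform of a complex IV subunit, followed at -0.92 (SE 0.10, adjusted p = 3.84e-06), with 676, 690.2 and 617 against 1380.3, 1123 and 1309, then Uqcr11, a small subunit of complex III, at -0.85 (SE 0.12, adjusted p = 6.11e-05). Cox8a, another widely expressed isoform of complex IV, stood at -0.84 (SE 0.11, adjusted p = 2.88e-05), from 1722, 1759 and 1483 in muscle and 3352, 2701 and 2879.7 in heart. The second probe set of Cox6a1 gave a smaller difference, -0.56, and all 5 of these genes stayed lower after quantile normalization.

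The 3 subunits that were higher in muscle were all dim. Cox8c, Cox6b2 and Cox7b2, isoforms best known from the testis, had mean signals of 24.8 ± 4.59, 36.6 ± 3.02 and 9.97 ± 2.15 (SD, n = 3) in Tk2+/+ muscle against 14.7 ± 3.39, 26.8 ± 7.31 and 5.61 ± 0.65 in heart. Their log2 fold changes of 0.41, 0.31 and 0.26 became 0.09, 0.00 and 0.06 after quantile normalization, and none of them passed the test there. On the deposited values only 1 of the 3 passed without replicate 1 or 3 of the Tk2+/+ muscle or replicate 3 of the Tk2+/+ heart. A further group of bright subunits differed little between the tissues. Atp5g2, a gene for the c subunit of the ATP synthase ring, had 2602, 3124 and 2453 in muscle and 2787, 2473 and 2663 in heart (log2 fold change 0.04, adjusted p = 0.785), and Ndufa2, an accessory subunit of the matrix arm of complex I, had -0.19 (adjusted p = 0.284).

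**Figure D1:**
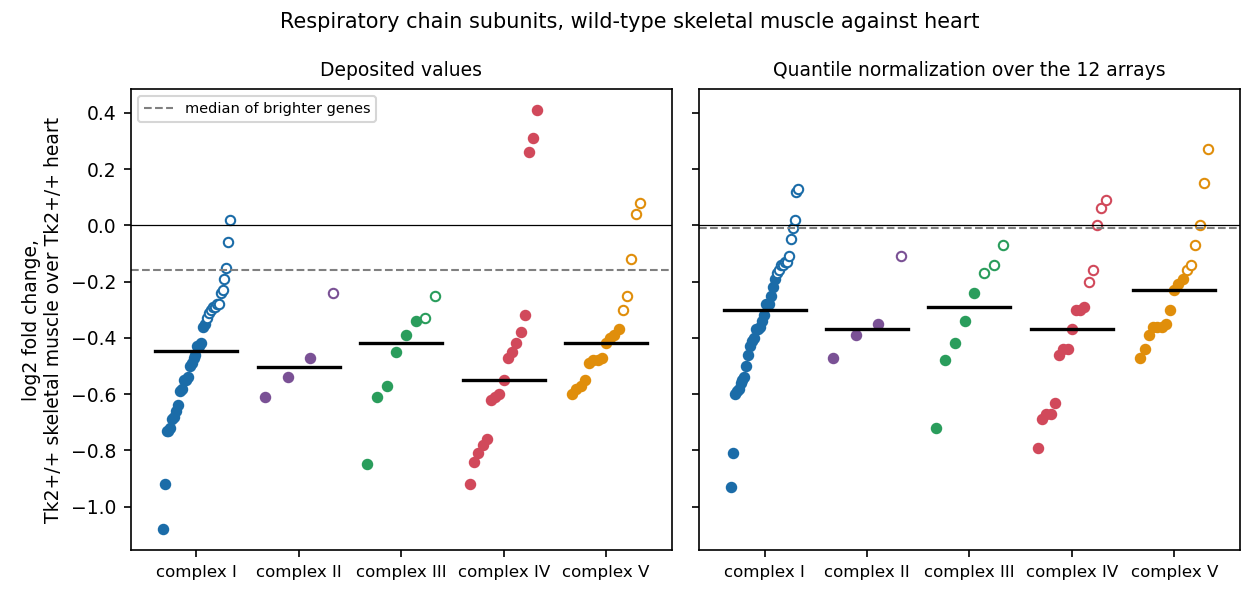
Log2 fold change of each subunit in Tk2+/+ skeletal muscle over Tk2+/+ heart (3 arrays each), by complex, on the deposited values (left) and after quantile normalization over the 12 arrays (right). Filled points passed the test (limma, adjusted p under 0.05), open points did not, black bars are medians of a complex, and the dashed line is the median of the 4051 genes above a signal of 256. The points of every complex lie mostly below the dashed line under both scalings, and the 3 filled points above 0 on the left are the dim isoforms Cox8c, Cox6b2 and Cox7b2.

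Nearly every subunit was lower in Tk2-/- than in Tk2+/+ heart on the deposited values, as were most bright genes. By limma 79 of 82 subunits were lower in Tk2-/- heart and 0 higher, with a median log2 fold change of -0.62, against 49% of all genes lower and 1.99% higher, and 1 was higher at an unadjusted p under 0.05. Among genes above a signal of 256, the same 84.8% were lower. Signals of the genotypes did not overlap for 80 of the 82 subunits (97.6%), against 56.4% of all genes. After quantile normalization within the tissue, 13 subunits were lower and 4 higher, with a median of -0.07 (all genes: 15.9% lower, 16.1% higher; genes above a signal of 256: 23.7% lower, 21.7% higher). These 13 became 4 without replicate 3 of the Tk2-/- heart and 5 without replicate 1 of either genotype, and the 4 higher became 1 without replicate 2 or 3 of the Tk2-/- heart or replicate 3 of the Tk2+/+ heart and 2 without its replicate 1. Complexes I, II and III had deposited medians of -0.70, -0.70 and -0.68, while complexes IV and V had -0.47 and -0.57. After quantile normalization these medians were -0.09, -0.12, -0.10, 0.01 and -0.07. The 65 cytosolic ribosomal proteins, which are bright genes outside the mitochondrion, had a deposited median of -0.68, with 64 lower.

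Set against the Tk2+/+ mean, the median log2 signal of all subunits was -0.72, -0.40 and -0.76 in the 3 Tk2-/- heart arrays on the deposited values, so that replicate 2 lay closest to the controls, and -0.13, 0.02 and -0.09 after quantile normalization. In Tk2-/- muscle the array medians were 0.06, 0.18 and -0.02, while the 3 Tk2+/+ muscle arrays themselves spread from -0.13 to 0.26, with replicate 2 the highest. After quantile normalization complex I was below the Tk2+/+ mean in all 3 Tk2-/- muscle arrays (-0.17, -0.04 and -0.23), and so were complex III (-0.03, -0.02 and -0.07), complex V (-0.08, -0.07 and -0.09) and the mitochondrial ribosomal proteins (-0.14, -0.14 and -0.21), while complex IV was within 0.04 of it. The cytosolic ribosomal proteins, outside the mitochondrion, were below it in all 3 as well (-0.04, -0.09 and -0.05). The Tk2+/+ muscle arrays themselves were at -0.04, 0.04 and 0.0 for complex I and -0.03, 0.02 and 0.0 for complex V. For complex III they were at -0.05, 0.02 and 0.02, and for the cytosolic ribosomal proteins at 0.13, -0.03 and -0.09. The genotypes thus overlapped for the latter 2 sets, and replicate 2 of the Tk2-/- muscle reached the Tk2+/+ range for complex I.

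**Figure D2:**
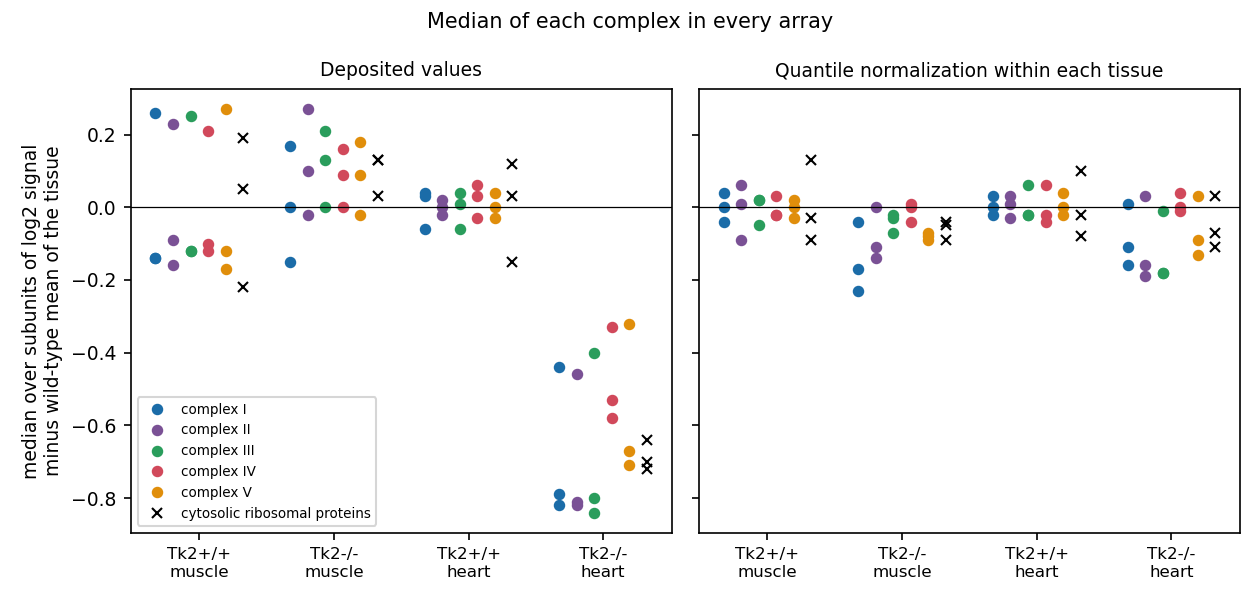
Median over the subunits of a complex of the log2 signal minus the Tk2+/+ mean of the same tissue, 1 point per array, for the 4 groups of 3 arrays, on deposited values (left) and after quantile normalization within each tissue (right). Crosses show the 65 cytosolic ribosomal proteins. On the left all complexes and the ribosomal proteins lie between -0.84 and -0.32 in Tk2-/- heart, and on the right every point lies within 0.23 of 0.

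The 3 subunits that fell most in Tk2-/- heart belong to complex I. Ndufb10, an accessory subunit of the membrane arm, had signals of 995, 889.9 and 939.9 in Tk2+/+ heart and 383, 481 and 394 in Tk2-/- heart. There was no overlap between genotypes, and the log2 fold change was -1.14 (SE 0.13, adjusted p = 7.25e-06) on the deposited values and -0.46 (SE 0.09, adjusted p = 0.0015) after quantile normalization. Ndufa2 went from 1342, 1132 and 1372 to 533, 692 and 505, a log2 fold change of -1.14 (SE 0.14, adjusted p = 1e-05) and, after quantile normalization, -0.46 (SE 0.09, adjusted p = 0.00154). Ndufb7, another accessory subunit of the membrane arm, had 1349.8, 1137 and 1338 and 507, 729.9 and 510.3, with -1.13 (SE 0.15, adjusted p = 1.51e-05) and -0.45 (SE 0.10, adjusted p = 0.00409). For all 3 genes the fall was past the threshold under both scalings, and replicate 2 of the Tk2-/- heart was the highest of its group.

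Ndufs5, an accessory subunit at the intermembrane face of complex I, fell from 541, 524 and 521 to 216, 271 and 227, by limma a log2 fold change of -1.11 on the deposited values and -0.40 (SE 0.09, adjusted p = 0.00609) after quantile normalization. A further probe set is shared by Ndufs5 and its pseudogene, and whether transcripts of that copy add to the signal was not tested. Cox4i2, an isoform of complex IV subunit 4 known from lung and from its response to oxygen, had 345, 249.8 and 313 in Tk2+/+ and 119.6, 174 and 106 in Tk2-/- heart, with log2 fold changes of -1.11 and -0.43 (SE 0.13, adjusted p = 0.0234). It was the only subunit outside complexes I, III and V among the 13 that fell after quantile normalization. Cyc1, cytochrome c1 of complex III, was among them at -0.25 (SE 0.08, adjusted p = 0.0246).

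The direction of 23 subunits in heart turned from below 0 on the deposited values to above 0 after quantile normalization, and 3 of these passed the test under both scalings. Ndufa3, a small membrane subunit of complex I, had 2023, 2044 and 2046 in Tk2+/+ heart and 1402, 1828 and 1529 in Tk2-/- heart, which gave -0.37 (SE 0.13, adjusted p = 0.0287) on the deposited values but 0.25 (SE 0.09, adjusted p = 0.0469) after quantile normalization. Atp5g2 likewise had -0.36 and 0.20 (SE 0.07, adjusted p = 0.0372), and Cox7b, a small subunit of complex IV, had -0.29 and 0.19 (SE 0.06, adjusted p = 0.0376). Their deposited falls were smaller than the median of -0.68 among genes above a signal of 256. Cox8c, at signals of 16.1, 17.1 and 10.8 against 24.6, 19.9 and 18.3, had 0.27 (adjusted p = 0.0583) and 0.36 (SE 0.08, adjusted p = 0.00625), and both groups lay near the dim end of the array. Cox6b2 and Cox7b2, also dim, did not pass under either of these scalings.

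In skeletal muscle few subunits passed the test on the deposited values. By limma 2 were higher and 3 lower in Tk2-/- muscle, with a median log2 fold change of 0.07 (all genes: 11.6% higher, 10.9% lower). After quantile normalization within the tissue 0 were higher and 17 lower, with a median of -0.07 (all genes: 14.5% higher, 14.6% lower). With median centring, by contrast, 10 were higher and 2 lower (all genes: 17.8% higher, 9.46% lower; genes above a signal of 256: 35.6% higher), so the direction of the muscle counts turned with the scaling. Among genes above a signal of 256, 24.9% were lower and 24% higher after quantile normalization, and 12.4% lower and 24.8% higher on the deposited values. Signals of the genotypes did not overlap for 8 of the 82 subunits (9.76%), against 35.7% of all genes. An unadjusted p under 0.05 was reached by 4 higher and 30 lower subunits after quantile normalization. By complex the 17 were 12 of 36 in complex I against 1 of 4, 1 of 8, 1 of 17 and 2 of 17 in complexes II to V. The complex I count was 5 without replicate 2 of the Tk2+/+ muscle or replicate 3 of the Tk2-/- muscle, each time of 9 lower subunits in all, and 9 without replicate 3 of the Tk2+/+ muscle or replicate 1 of the Tk2-/- muscle. Within complex I, 11 of the 28 supernumerary subunits, those outside the conserved core, and 1 of the 6 measured core subunits were lower.

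Markers of cell types and of fibre types differed in Tk2-/- muscle too. Of 6 fibroblast markers 4 were lower and 1 higher under both scalings, with summed deposited signals of 6869 to 8410.2 against 11783 to 13521. Of 6 markers of slow and oxidative fibres 3 were higher on the deposited values and 0 after quantile normalization (sums of 4694 to 7361 against 2217 to 4485). Of 3 adipocyte markers 2 were higher and 1 lower on the deposited values, and 1 and 1 after quantile normalization, with sums that overlapped. Of 7 macrophage and leucocyte markers 1 was higher under both scalings. Of the 10 genes listed as cardiomyocyte markers 3 were lower and 1 higher under both scalings, with summed deposited signals of 3837 to 4290 against 8592.5 to 11012. These are signals from hind limb muscle and do not count cardiomyocytes. The part of all these markers in the values of the subunits was not tested.

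The deposited count rests on single arrays. Leaving out 1 muscle array gave 0 to 11 subunits higher and 0 to 3 lower. Without replicate 2 of the Tk2+/+ muscle, the array with the highest subunit median, 11 were higher and 0 lower. Without replicate 1 of the Tk2+/+ muscle 0 were higher and 1 lower, and without replicate 3 of the Tk2-/- muscle 0 were lower. The higher count was also 0 without replicate 3 of the Tk2+/+ or replicate 2 of the Tk2-/- muscle, and 1 without replicate 1 of the Tk2-/- muscle. After quantile normalization 9 to 16 were lower and 0 to 1 higher when a muscle array was left out, with 9 lower without replicate 2 of the Tk2+/+ or replicate 3 of the Tk2-/- muscle and 10 without replicate 1 of the latter. With the methods' t-test and Benjamini-Hochberg adjustment none passed on the deposited values.

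Ndufb7, Ndufb10 and Ndufa2 were the 3 subunits lower in muscle on the deposited values, and they are the same genes that fell most in heart. Ndufb7 had signals of 938, 1066 and 830.0 in Tk2+/+ and 652, 752 and 590.2 in Tk2-/- muscle, without overlap, a log2 fold change of -0.50 (SE 0.15, adjusted p = 0.0225) that was -0.63 (SE 0.10, adjusted p = 0.00038) after quantile normalization. Ndufb10 went from 567, 692 and 521 to 421, 502 and 362, with -0.46 (SE 0.13, adjusted p = 0.0225) and -0.56 (SE 0.09, adjusted p = 0.000342). Ndufa2 went from 1047, 1307 and 1031 to 922, 863 and 717, with -0.43 (SE 0.14, adjusted p = 0.039) and -0.57 (SE 0.09, adjusted p = 0.00029). In each, all 3 Tk2-/- arrays lay below all 3 Tk2+/+ arrays. Each deposited call was lost with an offset of 1, with the methods' t-test and without several of the arrays, and after quantile normalization each was kept whichever array was left out.

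The 2 subunits higher in Tk2-/- muscle were Ndufv1, the flavoprotein that takes electrons from NADH, and Ndufa4. Ndufv1 had 1569, 2154 and 1753 in Tk2+/+ and 2307, 2691 and 2259 in Tk2-/- muscle, a log2 fold change of 0.41 (SE 0.12, adjusted p = 0.0257) on the deposited values and 0.21 (SE 0.08, adjusted p = 0.0618) after quantile normalization. Ndufa4 had 1467, 1837 and 1516 and 2015, 2223 and 1871, with 0.34 (SE 0.12, adjusted p = 0.0483) and 0.16 (SE 0.07, adjusted p = 0.119). Neither overlapped between genotypes, and neither passed after quantile normalization. Both were lower in Tk2-/- heart on the deposited values, Ndufv1 at -0.44 and Ndufa4 at -0.59, but at 0.10 and -0.01 after quantile normalization.

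**Figure D3:**
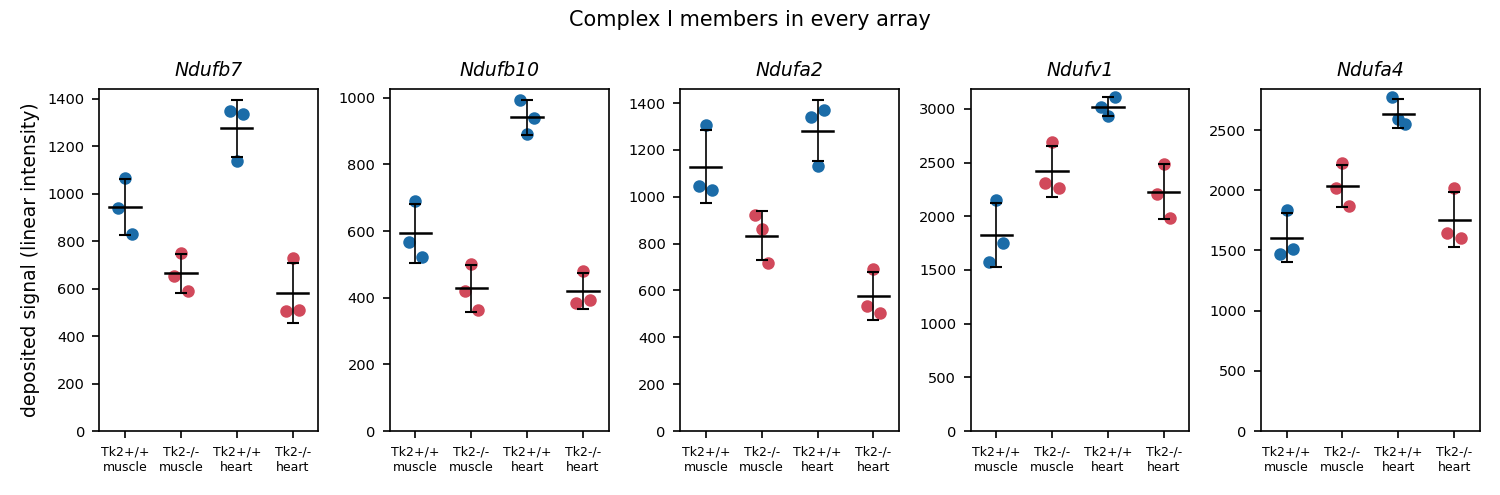
Deposited signal (linear intensity, axes from 0) of Ndufb7, Ndufb10, Ndufa2, Ndufv1 and Ndufa4 in every array. Blue points are Tk2+/+ and red points Tk2-/- arrays, bars and whiskers are the mean ± SD of 3 arrays. The first 3 genes are lower in Tk2-/- arrays of both tissues without overlap, and Ndufv1 and Ndufa4 are higher in Tk2-/- muscle and lower in Tk2-/- heart, where Ndufv1 stood at 0.10 (log2) after quantile normalization.

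The comparisons in the tissues share no array, so the subunits called in both could be counted. After quantile normalization within each tissue 6 were lower in both, which is 35.3% of the 17 in muscle and 46.2% of the 13 in heart, and 0 were higher in both. Of all genes 8.03% were lower in both tissues under that scaling, and of genes above a signal of 256 13.6%, so 6 of 82 is no larger a share. All 6 belong to complex I: Ndufb7, Ndufb10, Ndufa2, Ndufab1 (the mitochondrial acyl carrier protein), Ndufa8 and Ndufb2, of which the last 3 were named after their values were seen. Ndufab1 had a log2 fold change of -0.39 in muscle and -0.38 in heart, Ndufa8 -0.32 and -0.29, and Ndufb2 -0.33 and -0.23. When each of the 12 arrays was left out in turn, 3 to 9 subunits were lower in both tissues, and Ndufb7, Ndufb10 and Ndufa2 were among them all 12 times. On the deposited values these 3 were the subunits lower in both (all genes: 9.42%).

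**Figure D4:**
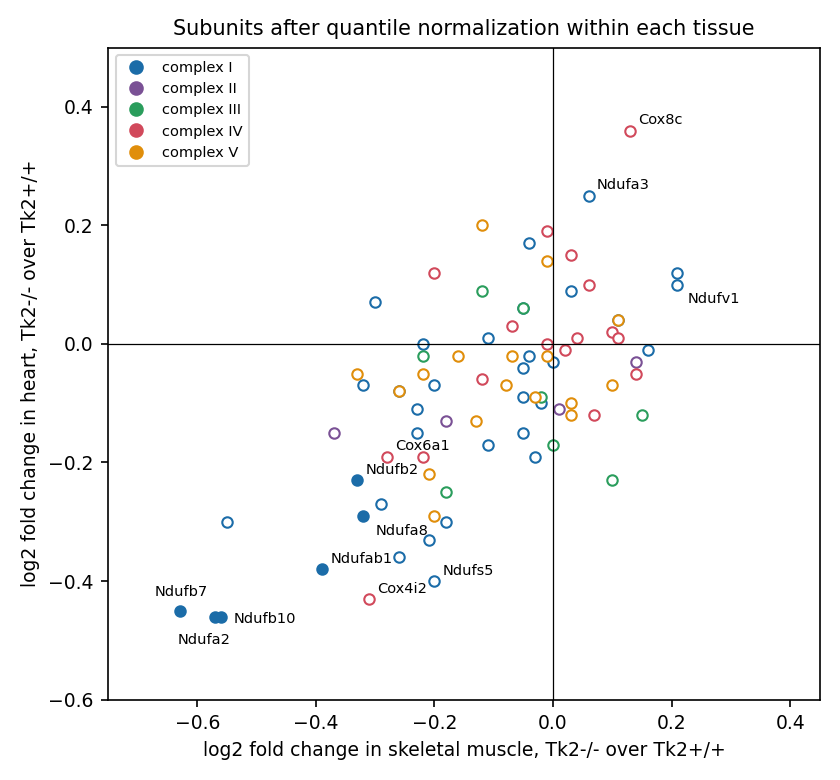
Log2 fold change of the 82 subunits in Tk2-/- over Tk2+/+ skeletal muscle (x axis) and heart (y axis) after quantile normalization within each tissue, coloured by complex. Filled points passed the test in both tissues (limma, adjusted p under 0.05) and open points did not. The 6 filled points, all of complex I, lie at the lower left, with Ndufb7, Ndufb10 and Ndufa2 between -0.63 and -0.45 on both axes.

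The genotype effect was also compared between the tissues. On the deposited values the signed log2 fold change was higher in muscle than in heart, where most values were negative, for 74 of 82 subunits and lower for 0 (0 at an unadjusted p under 0.05), with a median difference of 0.67 (all genes: 41.3% higher, 1.39% lower, median 0.30; genes above a signal of 256: 84.1% higher, median 0.79). After quantile normalization within each tissue the fold change differed for 0 of 82 by limma (all genes: 5.14% higher, 4.98% lower), and 7 had an unadjusted p under 0.05. Ndufv1 had a difference of 0.85 (SE 0.18, adjusted p = 0.00123) on the deposited values and 0.11 (SE 0.11, adjusted p = 0.594) after quantile normalization, and Ndufa4 0.93 (SE 0.17, adjusted p = 0.000515) and 0.17 (SE 0.10, adjusted p = 0.345). No subunit therefore passed under both scalings.

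The catalytic core of each complex can be followed by a few genes. Ndufs1, the iron-sulfur protein of complex I, had 1309, 1719 and 1355 in Tk2+/+ muscle, 1510.0, 1770.3 and 1474 in Tk2-/- muscle, 2394, 2516 and 2358 in Tk2+/+ heart and 1482, 1852 and 1233 in Tk2-/- heart. Its log2 fold change was 0.12 in muscle (adjusted p = 0.646) and -0.68 in heart (adjusted p = 0.000705). The muscle groups overlapped and the heart groups did not. Sdha, the flavoprotein of succinate dehydrogenase, had 2460.0, 3450.3 and 2819.9 and 3446, 3886 and 3382 in muscle, where it did not pass (0.31, adjusted p = 0.122). In heart it had 4003, 4322 and 4258 and 2893, 3459 and 2551, a log2 fold change of -0.51 (SE 0.13, adjusted p = 0.00402). Sdhb, its iron-sulfur partner, had 0.21 in muscle (adjusted p = 0.351) and -0.67 in heart (adjusted p = 0.00058).

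Uqcrfs1, the Rieske protein of complex III, had 898, 1193 and 911 in Tk2+/+ and 1089, 1395 and 1079 in Tk2-/- muscle. In heart it went from 1549.6, 1499 and 1388 to 772, 991 and 621, at -0.91 (SE 0.16, adjusted p = 0.000179) on the deposited values the largest fall among these core genes. Cox4i1, the main isoform of complex IV subunit 4, had mean signals of 1874 ± 295 and 2227 ± 208 in muscle and 3281 ± 251 and 2396 ± 163 in heart (SD, n = 3), with a heart log2 fold change of -0.45 (SE 0.12, adjusted p = 0.00445) that was 0.10 after quantile normalization. Cox5a, a further subunit of complex IV, had -0.55 in heart (adjusted p = 0.000958) and 0.03 after quantile normalization. The α and β subunits of the ATP synthase, which form its catalytic head, are encoded by Atp5a1 and Atp5b, and Atp5b binds the nucleotide where ATP is made. Atp5b had 6843, 7157 and 6859 in Tk2+/+ and 5304, 6161 and 5189 in Tk2-/- heart, a log2 fold change of -0.33 (adjusted p = 0.0316) that was 0.04 after quantile normalization, and Atp5a1 had -0.45 (adjusted p = 0.00464).

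Of these core genes only Cyc1 passed in heart after quantile normalization, and the sign of Cox4i1, Cox5a, Atp5b and Ndufv1 turned there. In muscle none of them but Ndufv1 passed on the deposited values and none passed after quantile normalization. Between the Tk2+/+ tissues all of them but Cyc1 were lower in muscle under both scalings, from -0.81 for Cox4i1 to -0.42 for Atp5b on the deposited values.

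Several subunits of complex IV exist as isoforms, and the log2 difference between 2 isoforms in the same array is not moved by a shift that both share. Cox6a2, Cox7a1 and Cox8b are the isoforms of heart and skeletal muscle, and Cox6a1, Cox7a2 and Cox8a their widely expressed counterparts. With 3 arrays against 3 the exact permutation test cannot go below p = 0.10 (2-sided), and 7 pairs were compared in 3 comparisons, 21 in all, for which the smallest adjusted p was 0.15. None could therefore pass, and the differences are given by whether the arrays overlapped. The pairs Cox6b2 with Cox6b1 and Cox7b2 with Cox7b were left out because an isoform was too dim (mean signal under 32).

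Relative to the other isoform, the muscle isoform of subunit 6a stood higher in Tk2-/- arrays of both tissues. Cox6a2 minus Cox6a1 was 1.92, 2.20 and 2.07 in Tk2+/+ muscle and 2.65, 2.31 and 2.21 in Tk2-/- muscle, a difference of 0.33. In heart it was 1.40, 1.61 and 1.38 in Tk2+/+ and 1.85, 2.11 and 1.93 in Tk2-/- mice, a difference of 0.50. The genotypes overlapped in neither tissue. Both genes fell in heart on the deposited values, Cox6a1 by limma at -0.87 (SE 0.10, adjusted p = 7.61e-06) and Cox6a2 at -0.37 (SE 0.12, adjusted p = 0.0199). After quantile normalization Cox6a1 stood at -0.19 and Cox6a2 at 0.15 in heart, and neither passed. With the mean of both Cox6a1 probe sets the heart difference was 0.29, since the second probe set of that gene fell by 0.44 on the log2 scale in place of 0.87.

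The isoforms of subunit 8 had the same order. Cox8b minus Cox8a was 1.15, 1.50 and 1.47 in Tk2+/+ muscle and 1.82, 1.69 and 1.62 in Tk2-/- muscle, a difference of 0.34. In heart it was 0.80, 1.12 and 1.09 and 1.17, 1.44 and 1.29, a difference of 0.30, again without overlap in either tissue. The heart changes of Cox8b and Cox8a after quantile normalization, -0.05 and -0.19, lay closer together than the deposited ones, -0.47 and -0.77. Both pairs also stood higher in Tk2+/+ muscle than in Tk2+/+ heart, by 0.60 and 0.37. Subunit 7a differed from them in heart. Cox7a1 minus Cox7a2 was 0.85, 0.80 and 0.81 in Tk2+/+ muscle and 0.94 or more in all 3 Tk2-/- muscle arrays, a difference of 0.18 without overlap, but -0.02 in heart, where the genotypes overlapped. Their heart changes after quantile normalization were 0.00 for Cox7a1 and 0.12 for Cox7a2.

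The difference had the opposite sign for the isoforms known from hypoxia. Cox4i2 minus Cox4i1 was -3.34, -3.53 and -3.19 in Tk2+/+ and -3.70, -4.28 and -3.81 in Tk2-/- muscle, a difference of -0.58, and the genotypes differed by -0.66 in heart. Ndufa4l2, a relative of Ndufa4 known as a target of hypoxia signaling, had mean signals of 89.9 ± 0.8 and 68.2 ± 20.1 in muscle and 114 ± 13 and 55.6 ± 7.3 in heart (SD, n = 3). Its difference from Ndufa4 was lower in Tk2-/- arrays, by -0.70 in muscle and -0.27 in heart. None of these 4 comparisons overlapped, but both genes are among the 5 dim subunits, and the offset of 16 affects a dim gene more than a bright one. Endothelial markers were lower as well, in heart (above) and in muscle, where 1 of 6 was lower on the deposited values and 3 after quantile normalization (sums of 4254 to 4724 against 4810.4 to 6009). Their part in the result was not tested.

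Atp5g1, Atp5g2 and Atp5g3 encode the same mature c subunit of the ATP synthase with different import sequences. The genotypes differed in Atp5g1 minus Atp5g3 by 0.13 in muscle and 0.11 in heart, with overlap in both. Atp5g2 minus Atp5g3 was -0.98, -1.01 and -0.96 in Tk2+/+ heart and -0.82, -0.94 and -0.51 in Tk2-/- heart, a difference of 0.23 without overlap, and the muscle difference was -0.02 with overlap. Between the Tk2+/+ tissues it was higher in muscle by 0.59.

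**Figure D5:**
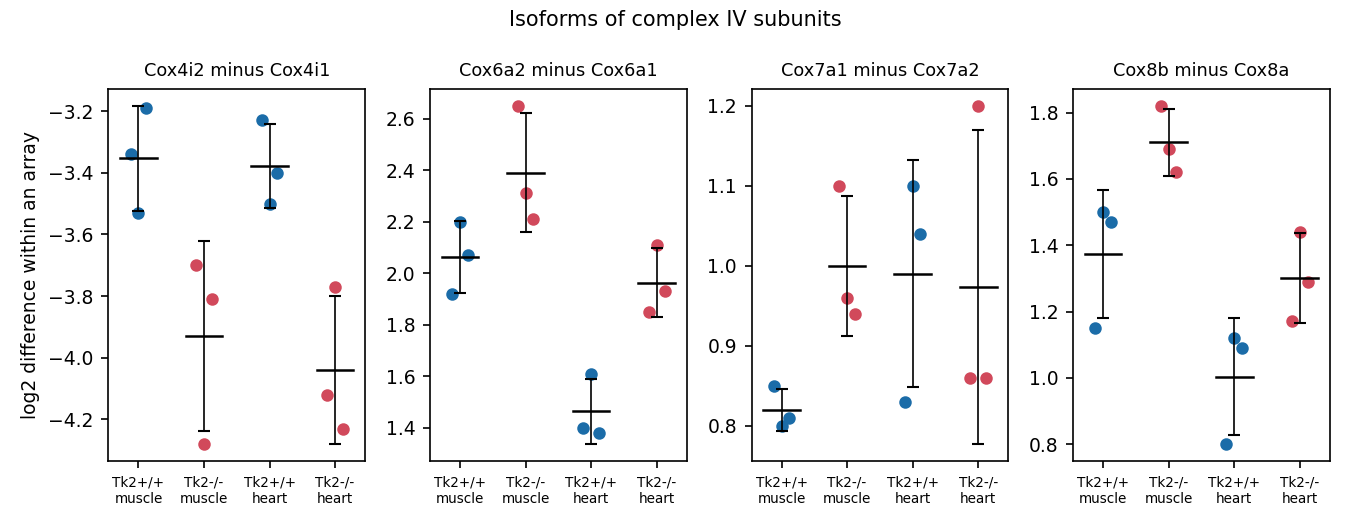
Log2 difference between 2 isoforms of a complex IV subunit within each array, for 4 pairs and the 4 groups (blue Tk2+/+, red Tk2-/-, bars and whiskers the mean ± SD of 3 arrays, and each panel with its own scale). Cox6a2 minus Cox6a1 and Cox8b minus Cox8a are higher in Tk2-/- arrays of both tissues, Cox7a1 minus Cox7a2 in muscle, and Cox4i2 minus Cox4i1 is lower in both tissues.

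Promoter windows from RefSeq (GRCm38.p6), 250 bases before to 50 after the start of a gene, were given for 67 of the 82 subunits and 17491 protein-coding genes in all. They are shown for genes picked by name: Cox6a1, Cox8a and Cox8b, isoforms whose difference did not overlap between genotypes, and Ndufb7 and Ndufb10. Other isoforms without overlap are not shown. Each runs 5′ to 3′ on the strand of the gene, with capitals for every match, on either strand, to the NRF1 core GCGCATGC, the ETS core CCGGAAG, the estrogen-related receptor site TCAAGGTCA, the MEF2 site or TATAAA. The last was added after values had been seen. Matches to the palindromic NRF1 core can overlap each other.
Cox6a1: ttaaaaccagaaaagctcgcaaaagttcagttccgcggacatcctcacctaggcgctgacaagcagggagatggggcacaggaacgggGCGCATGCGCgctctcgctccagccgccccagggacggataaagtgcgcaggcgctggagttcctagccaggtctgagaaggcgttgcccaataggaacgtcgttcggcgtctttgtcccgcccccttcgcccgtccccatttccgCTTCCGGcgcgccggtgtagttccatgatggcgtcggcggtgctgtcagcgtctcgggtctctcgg
Cox8a: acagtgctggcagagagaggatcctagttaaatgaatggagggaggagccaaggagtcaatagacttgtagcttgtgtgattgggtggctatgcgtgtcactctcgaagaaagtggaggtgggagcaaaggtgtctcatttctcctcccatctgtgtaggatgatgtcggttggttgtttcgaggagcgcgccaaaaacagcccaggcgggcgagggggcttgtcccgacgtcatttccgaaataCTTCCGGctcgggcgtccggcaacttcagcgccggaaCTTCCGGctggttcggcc
Cox8b: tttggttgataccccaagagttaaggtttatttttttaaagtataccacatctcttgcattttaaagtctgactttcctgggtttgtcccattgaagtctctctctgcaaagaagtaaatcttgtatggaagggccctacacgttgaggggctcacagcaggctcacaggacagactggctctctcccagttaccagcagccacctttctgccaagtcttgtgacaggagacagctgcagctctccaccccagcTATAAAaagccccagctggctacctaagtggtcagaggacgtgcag
Ndufb7: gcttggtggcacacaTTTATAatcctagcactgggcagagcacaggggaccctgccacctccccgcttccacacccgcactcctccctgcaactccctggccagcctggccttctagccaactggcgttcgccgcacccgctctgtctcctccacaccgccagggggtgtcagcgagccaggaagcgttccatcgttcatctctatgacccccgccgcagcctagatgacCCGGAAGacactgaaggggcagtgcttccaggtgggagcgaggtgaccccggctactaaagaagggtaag
Ndufb10: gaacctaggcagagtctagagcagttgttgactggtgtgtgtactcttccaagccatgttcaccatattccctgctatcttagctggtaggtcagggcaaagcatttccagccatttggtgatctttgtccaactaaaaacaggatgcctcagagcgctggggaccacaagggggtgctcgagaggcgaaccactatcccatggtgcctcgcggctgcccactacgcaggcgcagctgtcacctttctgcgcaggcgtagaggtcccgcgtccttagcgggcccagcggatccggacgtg
The windows lie at chr5:115348909-115349208, minus strand (Cox6a1), chr19:7217567-7217866, minus strand (Cox8a), chr7:140900397-140900696, minus strand (Cox8b), chr8:83566508-83566807, plus strand (Ndufb7) and chr17:24724374-24724673, minus strand (Ndufb10), and each spans the annotated start of the gene. The widely expressed isoforms shown held ETS cores, Cox6a1 beside 2 overlapping NRF1 cores and Cox8a at 2 places. The window of the muscle isoform Cox8b held neither and had a TATAAA just after its annotated start. Of the 12 complex IV subunits with a window, 1 held the NRF1 core and 3 the ETS core. Ndufb7 held an ETS core near its start and a TATAAA far upstream of it, and Ndufb10 held no match. Of the 67 subunits with a window, 14.9% held the NRF1 core against 3.93% of all protein-coding genes with a window, and 25.4% the ETS core against 12.94%. The estrogen-related receptor site was held by 3.0% against 0.38%, the MEF2 site by 0 against 3.27%, and a TATAAA by 11.9% against 14.8%. A match describes these letters and is not a site of binding.

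Assembly factors, the proteins that put the complexes together and are not part of them, were also measured. Of 53 measured, 22 were lower and 1 higher in Tk2-/- muscle on the deposited values (median -0.36) and 32 lower and 1 higher after quantile normalization (median -0.36). In heart all 53 were lower on the deposited values (median -0.98), and 31 were lower and 3 higher after quantile normalization (median -0.34). Bcs1l, the chaperone that inserts the Rieske protein into complex III, had mean signals of 294 ± 51.7 and 138 ± 10.8 in muscle and 324 ± 25 and 93 ± 32.4 in heart. Its log2 fold change was -0.99 (SE 0.17, adjusted p = 0.000607) in muscle and, after quantile normalization, -1.02 (SE 0.13, adjusted p = 0.000124) in heart. Lyrm7, which holds the Rieske protein before that step, had -0.88 (SE 0.18, adjusted p = 0.00252) in muscle and -1.15 (SE 0.16, adjusted p = 0.000186) in heart after quantile normalization. Coa5, a factor for complex IV, had -0.94 (SE 0.13, adjusted p = 0.000132) in muscle, and Taco1, which helps translate a complex IV subunit of mtDNA, -0.95 (SE 0.15, adjusted p = 0.000422) in heart after quantile normalization. Uqcrfs1 itself, the client of Bcs1l and Lyrm7, had 0.25 in muscle (adjusted p = 0.337) and -0.23 in heart after quantile normalization (adjusted p = 0.137).

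Of 16 genes for mobile carriers and coenzyme Q synthesis, 5 were higher and 1 lower in Tk2-/- muscle on the deposited values. Of genes above a signal of 256, 24.8% were higher and 12.4% lower. After quantile normalization 5 were higher and 2 lower (genes above a signal of 256: 24% higher, 24.9% lower). On the deposited values Coq8a, a kinase-like protein of coenzyme Q synthesis, rose from 1975 ± 229 to 4188 ± 722 (SD, n = 3). Its log2 fold change was 1.07 (SE 0.13, adjusted p = 2.39e-05). Etfa and Etfdh, which feed electrons from fatty acid oxidation into coenzyme Q, had 0.68 (SE 0.12, adjusted p = 0.000856) and 0.58 (SE 0.17, adjusted p = 0.0223). In heart 14 of the 16 were lower and 0 higher on the deposited values, where 84.8% of genes above a signal of 256 were lower. After quantile normalization 7 were lower and 2 higher (genes above a signal of 256: 23.7% lower, 21.7% higher). Coq10b, Coq5 and Coq3, all of coenzyme Q metabolism, had -0.91, -0.77 and -0.63 there, and each passed.

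Of 16 transcriptional regulators of respiratory genes, 3 were higher and 4 lower in Tk2-/- muscle on the deposited values (all genes: 11.6% higher, 10.9% lower). Ppargc1b, the coactivator PGC-1β, had signals of 253, 234 and 218 in Tk2+/+ and 101, 68.6 and 80.8 in Tk2-/- muscle, a log2 fold change of -1.35 (SE 0.13, adjusted p = 5.36e-06). In heart it had 419, 353 and 371 and 136, 175 and 127, with -1.30 on the deposited values and -0.61 (SE 0.11, adjusted p = 0.000897) after quantile normalization. Ppargc1a, the coactivator PGC-1α, and Esrrg, an estrogen-related receptor, were also lower in muscle, at -0.48 (SE 0.13, adjusted p = 0.014) and -0.50 (SE 0.16, adjusted p = 0.0418). In heart the sign of Ppargc1a turned with the scaling, from -0.19 (adjusted p = 0.243) to 0.45 (SE 0.14, adjusted p = 0.0286). On the deposited values 15 of the 16 were lower in heart and 0 higher (all genes: 49% lower, 1.99% higher). After quantile normalization 5 were lower and 2 higher there (all genes: 15.9% lower, 16.1% higher). Pprc1, a relative of the PGC-1 coactivators, was among these 5 at -0.44.

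Of 24 genes for import and the outer membrane, 2 were lower and 0 higher in Tk2-/- muscle on the deposited values (all genes: 10.9% lower). After quantile normalization 5 were lower (all genes: 14.6% lower). The 2 called on the deposited values were Timm22 and Tomm5, parts of the inner and outer membrane translocases. Their log2 fold changes were -0.88 (SE 0.16, adjusted p = 0.000862) and -0.65 (SE 0.14, adjusted p = 0.00365). In heart all 24 were lower on the deposited values, and 9 were lower and 0 higher after quantile normalization, with Hspd1, the matrix chaperonin, at -0.82, Timm22 at -0.77 and Timm8a1, an import chaperone of the intermembrane space, at -0.74. Of the 74 mitochondrial ribosomal proteins, 4 were higher and 10 lower in muscle on the deposited values (all genes: 11.6% higher, 10.9% lower). After quantile normalization 6 were higher and 23 lower (all genes: 14.5% higher, 14.6% lower). Those called on the deposited values included Mrpl19 at -0.86 (SE 0.14, adjusted p = 0.000431), Mrpl9 at 0.70 (SE 0.15, adjusted p = 0.00275) and Mrpl41 at 0.70 (SE 0.17, adjusted p = 0.00699). In heart all 74 were lower on the deposited values, against 49% of all genes. After quantile normalization 33 were lower and 1 higher (all genes: 15.9% lower, 16.1% higher). Mrpl45 had -0.95 under that scaling, Mrpl19 -0.82 and Mrps22 -0.71. Of the 65 cytosolic ribosomal proteins, 0 passed in muscle on the deposited values and 4 were lower after quantile normalization (all genes: 14.6% lower). In heart 3 were higher and 4 lower after quantile normalization (all genes: 16.1% higher, 15.9% lower). Rpl7l1, which is in this list by its symbol alone, had -0.54, while Rps27 and Rps14 had 0.48 and 0.37 there. The latter 2 had -0.22 and -0.31 on the deposited values. Of the 5 genes for the ATP synthase inhibitor and supercomplex factors, which include the subunits Cox7a2l and Atp5md, 0 passed in muscle (1 lower after quantile normalization) and all 5 were lower in heart on the deposited values, where Higd1a, a hypoxia-inducible factor of complex IV, had -0.80 (SE 0.15, adjusted p = 0.00126) after quantile normalization and was the only one of them to pass.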

How the data were processed

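Total RNA of the 12 samples was labelled and hybridised to Affymetrix Mouse Gene 1.1 ST arrays, 1 array per sample. The deposited values are linear intensities of probe sets that the authors summarised before deposit. Affymetrix Expression Console and PLIER appear in the submitters' processing notes with no version, and the sources used here do not say how arrays were scaled to each other. No column of samples was left out (0). Of 35556 probe sets, 21218 carried 1 symbol, and the brightest per gene was kept, which left 18820 genes. No background level or depth can be read from these values, so the number of arrays limits the precision.

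An offset of 16 was added, log2 was taken, and the 4 group means were fitted with limma 3.58.1 in R 4.3.3 (lmFit, eBayes) over all 12 arrays. Tests were 2-sided, p-values were adjusted by Benjamini-Hochberg across the 18820 genes, and adjusted p under 0.05 counted as passed. The fits were tested on simulated data. Isoforms were compared by the exact permutation test (scipy 1.17.1, Python 3.11.15), and figures were drawn with matplotlib 3.10.9. The limma p-values rest on the spread between mice within groups, pooled over the 4 groups of both tissues and moderated across genes.

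The subunits and lists were chosen with earlier results of these data known. Named were the isoforms, core subunits of each complex, the subunits with the largest called rises and falls (up to 5 each per comparison, in heart after quantile normalization) and leading genes of each list. Promoter windows were matched by symbol. Alternatives were median centring, quantile normalization, an offset of 1, the mean of all probe sets, dim genes (mean signal under 32) left out, other fits (2 groups alone, trended and robust prior, array weights, a replicate block), the methods' t-test and each array left out. Leaving arrays out after quantile normalization was added after seeing the data.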

Additional observations from a re-analysis of the deposited data

Results flagged for a closer look

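The genotype effect differed between the tissues by limma's interaction test on the deposited values for 74 subunits, with the log2 fold change of Tk2-/- over Tk2+/+ higher in skeletal muscle than in heart for all of them, where most heart values were negative, against 41.3% of all genes in that direction, and for 0 after quantile normalization within each tissue. Ndufa4 had a difference of 0.93 on the log2 scale and Ndufv1 of 0.85, and both became smaller after quantile normalization (0.17 and 0.11) and did not pass there. The median difference over all genes above a signal of 256 was 0.79 on the deposited values and 0.01 after quantile normalization. Groups of 3 arrays were not tested for single samples that stand apart.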

How the results depend on the processing

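With median centring, 10 subunits were higher and 2 lower in Tk2-/- muscle, 3 higher and 26 lower in Tk2-/- heart, the genotype fold change was higher in muscle than in heart for 17 and lower for 1, and 1 was higher in Tk2+/+ muscle than in heart. With quantile normalization the counts were 0 higher and 17 lower in muscle, 4 higher and 13 lower in heart, 0 for the difference between tissues and 0 higher in Tk2+/+ muscle. An offset of 1 gave 0 higher and 0 lower in muscle and 1 higher in heart, the methods' t-test 0 and 0 in muscle, array weights 9 higher in muscle, 1 higher in heart and 1 with a lower effect in muscle, and both the 2 groups alone and the trended prior 1 higher in muscle. Without dim genes 0 were higher in Tk2+/+ muscle. Each array left out gave 0 to 11 higher and 0 to 3 lower in muscle, 0 to 1 higher and 71 to 79 lower in heart, 58 to 78 for the difference, and 1 to 3 higher and 41 to 69 lower between the Tk2+/+ tissues. After quantile normalization these ranges were 0 to 1 and 9 to 16 in muscle and 1 to 3 and 4 to 18 in heart.

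Among the genes named, the sign in heart turned with median centring for Ndufa3 (0.08), Atp5g2 (0.08), Cox7b (0.15), Ndufv1 (0.00), Atp5b (0.12), Cox6a2 (0.07), Cox6b2 (0.30), Cox7b2 (0.44), Rps14 (0.14), Rps27 (0.23) and Ppargc1a (0.25). With quantile normalization it turned for 23 subunits in all, and among the genes named for Ndufa1 (0.12), Ndufa3 (0.25), Atp5g2 (0.20), Cox7b (0.19), Ndufv1 (0.10), Cox4i1 (0.10), Cox5a (0.03), Atp5b (0.04), Cox6a2 (0.15), Cox7a2 (0.12), Cox6b1 (0.02), Rps27 (0.48), Rps14 (0.37), Ppargc1a (0.45) and Cox6b2 (0.01). Cox4i2 minus Cox4i1 between Tk2+/+ tissues was -0.02 with an offset of 1 and -0.05 to 0.12 with an array left out. Cox7a1 minus Cox7a2 in heart ranged from -0.13 to 0.04 and Atp5g2 minus Atp5g3 in muscle from -0.12 to 0.05. The cause was not tested.

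Whether replicate numbers pair the samples is not stated, and no pairing was used in the main fit. Same-numbered arrays of the genotypes correlated from -0.189 to 0.128 in their deviations from the group mean. Same-numbered arrays of the tissues correlated from -0.193 to 0.098. With 3 arrays a group such correlations cannot settle whether samples were paired. The replicate block gave 2 higher and 2 lower in muscle, 1 higher and 79 lower in heart, 74 for the difference, and 2 higher and 57 lower between the tissues. With 3 arrays a group, the isoform test could not pass.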
